A study of Homo sapiens with 12 samples.

Results

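Senexin B, an inhibitor of the Mediator kinases CDK8 and CDK19, was compared with its vehicle in HCT116 cells that had received no other agent. HCT116 is a human colorectal carcinoma cell line with mutant CTNNB1. The compared libraries were chosen by their sample titles and numbered 6 of the 12 in the series, 3 per group. Control cells received 0.1% DMSO for 3 hours, and Senexin B cells received the compound at 1 µM for 3 hours. The other 6 libraries came from cells given DMSO or Senexin B for 1 hour and then the cytokine TNF at 10 ng/mL for 2 hours, and they served as a second measurement of the Senexin B effect. All cells were of this 1 line and were treated for hours, so the values describe an early response in 1 genetic background. The labels call the 3 samples of a group biological replicates.

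Mediator is the large complex that carries signals from DNA-bound transcription factors to RNA polymerase II. Its kinase module, made of CDK8 or its paralogue CDK19, cyclin C (CCNC), MED12 and MED13, binds Mediator reversibly and phosphorylates transcription factors and other regulators. The module is known both to help inducible genes, such as the immediate early genes of serum and stress signalling, and to restrain others. In colorectal cancer cells CDK8 is known as a kinase that works with beta-catenin.

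The question of the comparison is which genes depend on Mediator kinase activity in cells that were not stimulated. Total counts were from 7315736 to 8994809 in the control libraries and from 7986987 to 9281176 in the Senexin B libraries, and 13084 of 56634 gene symbols passed the filter on low counts. Levels are given as CPM, each gene's reads scaled to a fixed library size after TMM correction, and 1 CPM is 7.42 to 9.34 counts in these libraries. Control replicate 1 stood apart: the chi-square per degree of freedom against control replicates 2 and 3 was 2.71 and 2.87, against 1.37 between those 2 libraries and 1.23 to 1.51 among the Senexin B libraries. The summed level of 12 colon epithelial markers was 4301 to 4628 CPM in control and 4720 to 4817 CPM in Senexin B libraries, most of it KRT8, KRT18, KRT19 and EPCAM. VIL1, CDX1 and CEACAM5 were listed at 0 in every library. Markers of fibroblasts summed to 9.10 to 11.05 CPM, almost all COL1A1, with DCN, LUM, PDGFRA and THY1 at 0, and blood cell markers summed to at most 0.674 CPM.

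Few genes passed the test for Senexin B, and most of those changed slightly. Among genes above 10 CPM, EGR1, JUN, CSRNP1 and KLF2 fell furthest. Of 13084 genes, 398 passed the test (3.04%), 200 of them higher (1.53%) and 198 lower (1.51%). These shares are the background for each count of list members without TNF below. A gene is said to have risen or fallen where its adjusted p was under 0.05 by the quasi-likelihood test of edgeR, after Benjamini-Hochberg adjustment over all tested genes. The median log2 fold change was 0.28 among the genes that rose and -0.27 among those that fell, against -0.00036 over all genes. A fold of at least 1.5 was reached by 31 genes, 10 higher and 21 lower, and a fold of at least 2 by 9 genes, 2 higher and 7 lower. The 3 libraries of 1 group lay wholly above those of the other for 397 of the 398 genes, and for 20.0% of all tested genes. Without control replicate 1 the test called 266 genes, and without Senexin B replicate 1, 2 or 3 it called 261, 250 or 236. Depth and the number of libraries limit how small a change could be called.

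**Figure D1:**
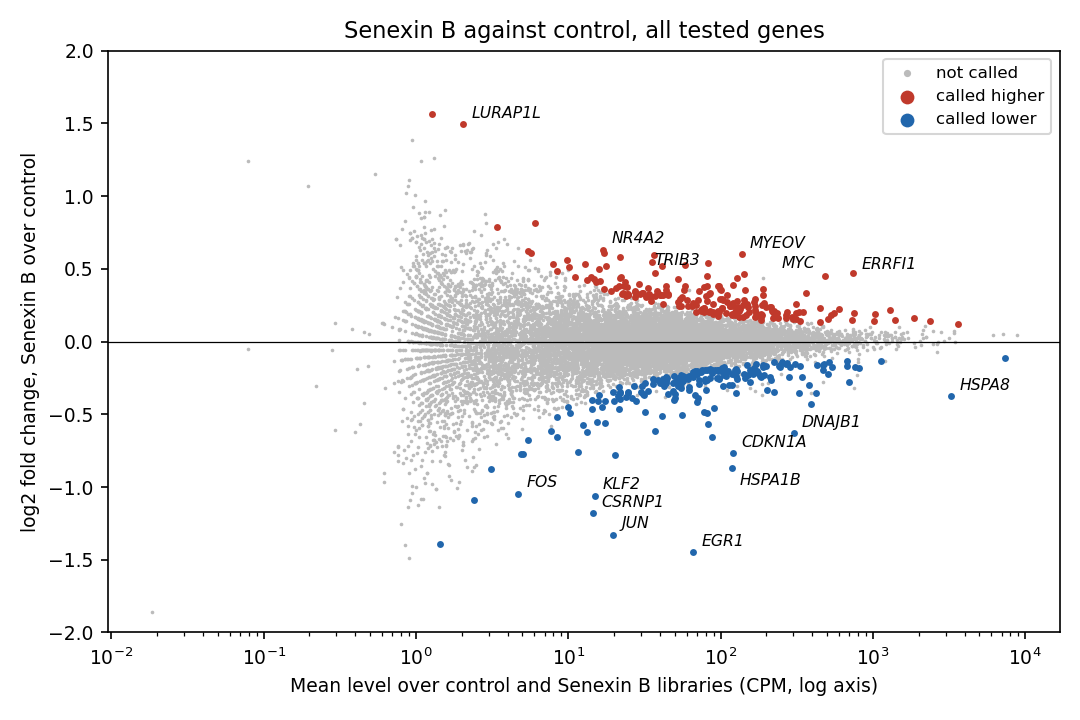
Each point is a tested gene, with its mean level over the 6 libraries (CPM, log axis) on the x axis and the log2 fold change of Senexin B over control on the y axis. Red points rose, blue points fell and grey points were not called. EGR1, JUN, CSRNP1 and KLF2 lie furthest below 0 among genes above 10 CPM, and 1 gene that was not called lies outside the axis.

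The kinase module itself was checked first. CDK8 stood at 40.7, 42.5 and 46.1 CPM in control and at 44.9, 44.8 and 45.1 CPM in Senexin B libraries. CDK19 stood at 23.9, 25.2 and 22.0 CPM in control and at 22.4, 25.2 and 20.0 CPM with the compound. Both groups overlapped for both kinases, with log2 fold changes of 0.06 ± 0.07 (SE) for CDK8 and -0.08 ± 0.09 for CDK19. CCNC and MED12 were not called either, at -0.07 ± 0.06 and -0.15 ± 0.09. MED13, the large subunit that links the module to core Mediator, fell from 259 ± 14.1 to 232 ± 13.0 CPM (SD, n = 3), but the call needed control replicate 1 and Senexin B replicates 1 and 2 (adjusted p up to 0.282 in edgeR when 1 of them was left out). Senexin B blocks the kinases' catalytic site, so these transcript levels do not measure its action on the target. None of 26 core Mediator genes passed the test in edgeR or DESeq2, and 2 had an unadjusted p under 0.05, both higher.

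Immediate early genes gave the steepest falls among genes above 10 CPM. EGR1, a zinc finger factor induced within minutes by growth signals, stood at 88.1, 108 and 94.7 CPM in control replicates 1 to 3 and at 34.6, 37.1 and 35.1 CPM in Senexin B replicates 1 to 3. Every treated library was below every control library, a 2.73-fold fall (log2 fold change -1.45 ± 0.10, adjusted p = 7.1e-10 in edgeR). NAB2, a co-repressor that binds EGR1 and is itself an EGR1 target, fell from 64.5, 64.9 and 66.6 CPM to 46.4, 45.1 and 46.6 CPM, 1.42-fold. NAB1, its paralogue, fell from 48.0 ± 1.22 to 39.7 ± 0.651 CPM, a call that needed control replicate 2 and Senexin B replicates 2 and 3 (adjusted p up to 0.0653 when 1 of them was left out). EGR3 had means of 1.75 and 1.63 CPM and was not called, and EGR2 and EGR4 did not pass the filter. So 3 of the 4 tested genes of the EGR and NAB list fell.

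JUN, the founding subunit of the dimeric factor AP-1, stood at 26.4, 29.0 and 28.7 CPM in control and at 10.8, 12.4 and 10.5 CPM in Senexin B libraries. The groups were separated by a gap wider than the spread within either, and the fall was 2.51-fold (log2 fold change -1.33 ± 0.11, adjusted p = 4.49e-15 in edgeR). FOS, its classic partner, fell 2.06-fold at a low level, from 5.66, 6.29 and 6.85 CPM to 3.28, 3.22 and 2.68 CPM. JUND, a JUN relative with a steady basal level, fell 1.41-fold, from 95.3 ± 7.90 to 67.6 ± 2.63 CPM. The other 7 of 10 tested AP-1 genes did not pass the test. Among them JUNB had a log2 fold change of -0.31 ± 0.10, FOSL1 0.08 ± 0.05 and FOSB 0.48 ± 0.25.

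The starts of EGR1 and JUN are shown because these genes fell furthest among those above 10 CPM. Each sequence is the 250 bases before 1 RefSeq start of the gene, read 5′ to 3′ on the gene's strand from RefSeq's promoter table (GRCh38.p14), which matched 9463 of the tested genes. RefSeq starts can lie inside the outer bounds of the GENCODE gene: of the promoters printed here, those of JUN, DNAJB1, CHAC1, TRIB3 and STC2 lie within those bounds and those of HSPA1B and ASNS overlap them in part. In all promoters printed here, capitals mark a match to a heat shock element (GAANNTTC or TTCNNGAA), the ATF4 and C/EBP composite element (TGATGNAA), the JUN-type AP-1 site (TGACATCA), the CArG box bound by SRF, or a TATA box (TATAAA), searched on both strands.
EGR1, chr5:138465229-138465478, forward strand: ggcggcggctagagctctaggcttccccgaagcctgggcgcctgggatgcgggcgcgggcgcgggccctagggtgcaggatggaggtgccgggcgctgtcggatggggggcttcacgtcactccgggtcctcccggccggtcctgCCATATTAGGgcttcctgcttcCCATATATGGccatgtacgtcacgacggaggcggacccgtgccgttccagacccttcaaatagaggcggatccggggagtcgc
JUN, chr1:58784048-58784297, reverse strand: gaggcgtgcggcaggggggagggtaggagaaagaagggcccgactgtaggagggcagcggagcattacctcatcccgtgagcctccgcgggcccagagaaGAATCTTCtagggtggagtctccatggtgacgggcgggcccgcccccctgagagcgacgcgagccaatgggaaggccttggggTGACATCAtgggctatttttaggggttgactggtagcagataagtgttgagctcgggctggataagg
EGR1 has 2 CArG boxes, the first at 105 and the second at 83 bases before the start. CArG boxes stood in 0.909% of the 9463 promoters. They stood in 3 of 151 promoters of genes that fell (1.99%, EGR1 among them) and in 5 of 139 of genes that rose (3.6%). JUN has the JUN-type AP-1 site at 67 bases before the start. That motif stood in 1.03% of all promoters and in 4 of 151 of genes that fell (2.65%, JUN among them). JUN also holds a GAANNTTC match at 150 bases. A match is a description of letters and not a measured binding site.

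Further immediate early genes fell with EGR1 and JUN. CSRNP1, a nuclear protein first found as an axin-induced gene, went from 18.2, 21.2 and 21.5 CPM to 8.79, 7.81 and 10.3 CPM, a 2.26-fold fall (log2 fold change -1.18 ± 0.12, adjusted p = 5.48e-11 in edgeR). SERTAD1, a cofactor of cyclin D and E2F, fell 1.71-fold from 25.3, 27.2 and 24.5 CPM to 13.9, 16.7 and 14.3 CPM. IER3, a stress-inducible survival gene, fell 1.26-fold from 226 ± 11.4 to 179.8 ± 5.75 CPM. These were the 3 of 9 tested genes of the IER, CSRNP and SERTAD list that passed, and none rose. IER2 was not called, at a log2 fold change of -0.12 ± 0.06.

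Other genes among the 12 largest falls stood at low levels and belong to no immediate early list. GP1BA, a platelet receptor subunit, went from 2.83, 1.19 and 2.21 CPM to 0.820, 0.992 and 0.535 CPM (log2 fold change -1.39 ± 0.41, adjusted p = 0.0266 in edgeR), a larger fall than that of JUN. ANGPTL4, an inhibitor of lipoprotein lipase, went from 3.28 ± 0.488 to 1.54 ± 0.159 CPM (-1.09 ± 0.29). The membrane adaptor PAG1, the transcription factor SOX8 and the endocytic receptor LRP1 fell by 0.88, 0.78 and 0.77 on the log2 scale, from control means of 4.04, 6.15 and 6.34 CPM. Each of these 5 calls rested on single libraries. GP1BA and PAG1 both failed the test when Senexin B replicate 1, Senexin B replicate 3 or control replicate 3 was dropped, GP1BA also on dropping control replicate 1 and PAG1 control replicate 2 (adjusted p up to 0.221 and 0.15). SOX8 failed on dropping either of control replicates 2 and 3 or of Senexin B replicates 2 and 3 (up to 0.159). LRP1 failed on dropping control replicate 3 or either of Senexin B replicates 1 and 3 (up to 0.0837), and ANGPTL4 on dropping control replicate 2 or either of Senexin B replicates 1 and 2 (up to 0.0957).

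The Kruppel-like factors, zinc finger proteins that bind GC-rich promoters, split by member. KLF2, known for its part in endothelial and T cell quiescence, fell 2.08-fold, from 18.1, 21.7 and 20.6 CPM to 10.3, 10.2 and 8.67 CPM (log2 fold change -1.06 ± 0.13, adjusted p = 9.06e-09 in edgeR). KLF5, a factor of proliferating intestinal epithelium, moved the other way, from 73.3, 71.0 and 82.8 CPM to 99.3, 95.1 and 92.3 CPM, 1.26-fold higher. KLF4, a factor of differentiated intestinal cells, stood at 16.0, 19.9 and 20.3 CPM in control and at 26.5, 25.8 and 24.8 CPM with the compound, a rise that was not called without control replicate 1 (adjusted p = 0.0685). Of 13 tested KLF genes, 2 rose and 3 fell, and 1 fell without Senexin B replicate 2. NR4A2, an orphan nuclear receptor and immediate early gene, also rose, from 15.6, 11.9 and 12.4 CPM to 18.6, 23.7 and 19.3 CPM (log2 fold change 0.63 ± 0.12). NR4A1 and NR4A3 were not called, at -0.20 ± 0.11 and -0.43 ± 0.43.

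Feedback inhibitors of growth factor signalling rose in part. ERRFI1 encodes a protein that binds and blocks the EGF receptor kinase. It stood at 611, 617 and 641 CPM in control and at 858, 846 and 892 CPM in Senexin B libraries, 1.39-fold higher (log2 fold change 0.47 ± 0.03, adjusted p = 2.13e-16 in edgeR). The nuclear ERK phosphatases DUSP5 and DUSP4 rose 1.28-fold and 1.18-fold, to 214 ± 4.04 and 214 ± 10.4 CPM. DUSP7 fell by 0.26 on the log2 scale, but leaving out control replicate 2 or either of Senexin B replicates 1 and 3 ended the call (adjusted p up to 0.0736). Of 19 tested genes of this list 3 rose and 1 fell, with a median log2 fold change of -0.05, and DUSP1, DUSP6 and SPRY4 were not called. Among the Tribbles pseudokinases, TRIB1 rose from 320.2 ± 14.4 to 403 ± 7.23 CPM and TRIB3 from 67.9 ± 3.58 to 98.7 ± 2.17 CPM, while TRIB2 was not called.

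SRF, the factor that binds CArG boxes together with ternary complex factors or actin-sensing coactivators, itself rose from 96.8, 98.4 and 99.2 CPM to 118, 126 and 123 CPM (log2 fold change 0.32 ± 0.05). Its cytoskeletal targets FHL2, a LIM domain cofactor, and VCL, the focal adhesion protein vinculin, rose 1.22-fold and 1.14-fold. In all, 5 of 16 tested genes of the SRF and actin list rose and none fell, against 3 that rose without control replicate 1. EGR1, whose promoter carries the CArG boxes shown above, fell in the same libraries in which SRF and FHL2 rose.

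**Figure D2:**
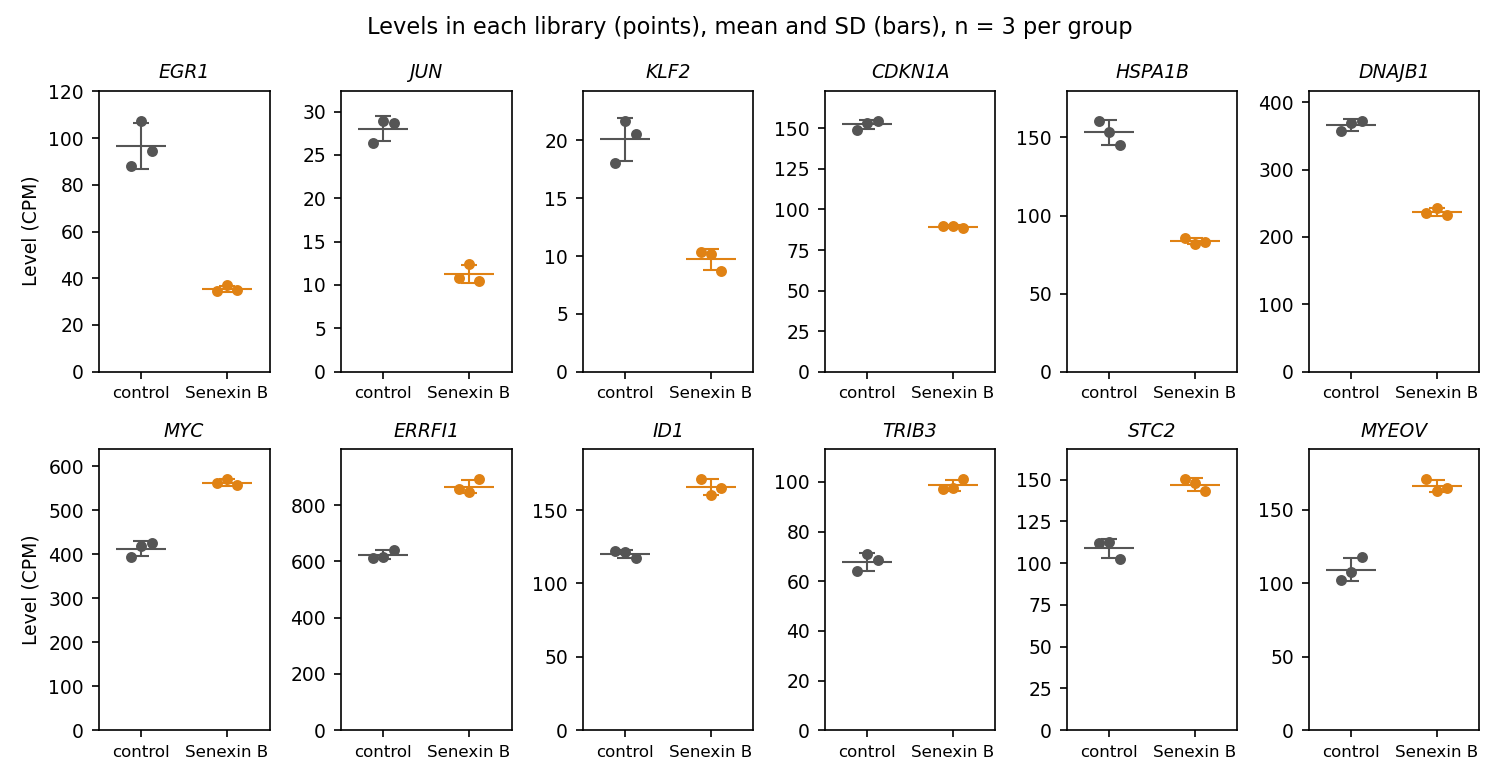
Levels in CPM (y axes, from 0) of 12 genes in each of the 3 control and 3 Senexin B libraries (points), with the mean as a horizontal line and the SD as bars. In each panel the points of the 2 groups do not overlap, and for EGR1 the control libraries span 88.1 to 108 CPM and the treated ones 34.6 to 37.1 CPM.

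Cytosolic heat shock genes formed the next group of falls. These genes encode chaperones that keep proteins folded, and the factor HSF1 drives them from heat shock elements. HSPA1B, the inducible HSP70, stood at 161, 153 and 145 CPM in control and at 85.4, 82.0 and 83.3 CPM in Senexin B libraries. The treated libraries were all near the same level, 1.83-fold lower (log2 fold change -0.87 ± 0.05, adjusted p = 7.99e-19 in edgeR). HSPA1A, whose coding sequence is nearly identical, was listed at 2.03 to 4.27 CPM, so reads of the pair could have been assigned to either copy and the HSPA1B value is uncertain in that sense.

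DNAJB1, the HSP40 co-chaperone of HSP70, fell 1.55-fold, from 357, 369.9 and 373 CPM to 235, 244 and 232 CPM (adjusted p = 1.35e-18 in edgeR). HSPA8, the constitutive HSC70 and among the most abundant transcripts here, fell 1.29-fold, from 3695 ± 134 to 2853 ± 76.0 CPM. DNAJA1, a second HSP40, fell 1.27-fold to 373 ± 19.9 CPM, and HSPH1, the nucleotide exchange factor HSP110, fell 1.14-fold to 439 ± 10.3 CPM. HSP90AA1, the inducible HSP90, and the co-chaperones BAG3 and DNAJA4 fell by 0.11, 0.19 and 0.26 on the log2 scale. These smaller falls, named after their values were seen, were each lost without some libraries: HSP90AA1 without Senexin B replicate 2 or control replicate 3 (adjusted p up to 0.118 in edgeR), and BAG3 without control replicate 2 or Senexin B replicate 2 or 3 (up to 0.234). DNAJA4 was lost without control replicate 1 or 3 or Senexin B replicate 1 (up to 0.148). Altogether 8 of 29 tested heat shock genes fell (27.6%, against 1.51% of all tested genes) and none rose. The number that fell was 6 to 12 over the alternatives tried and 7 without control replicate 1. The median of the list was -0.11, against -0.00036 over all genes, -0.07 without control replicate 3 and -0.0069 with no filter on low counts.

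The list was not uniform. The mitochondrial chaperonins HSPD1 and HSPE1, the cytosolic HSP90AB1 and the small heat shock protein HSPB1 were not called, at log2 fold changes of -0.01, 0.05, 0.06 and 0.02. HSF1 was not called, at 0.07 ± 0.06. Of 21 tested genes for endoplasmic reticulum chaperones and their regulators, XBP1, the factor that drives that compartment's stress response, was the 1 that passed. That is 4.76% of the list, near the 3.04% called over all genes. XBP1 rose from 64.7, 70.8 and 66.8 CPM to 88.9, 86.4 and 87.8 CPM.

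The promoters of HSPA1B and DNAJB1, the heat shock genes that fell most, are shown with their heat shock elements in capitals. HSPA1B also has a TATA box in capitals.
HSPA1B, chr6:31827488-31827737, forward strand: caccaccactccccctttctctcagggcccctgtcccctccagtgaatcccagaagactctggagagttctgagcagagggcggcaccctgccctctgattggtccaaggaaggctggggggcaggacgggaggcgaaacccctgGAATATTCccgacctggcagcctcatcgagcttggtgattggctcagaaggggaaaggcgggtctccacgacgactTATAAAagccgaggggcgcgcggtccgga
DNAJB1, chr19:14518398-14518647, reverse strand: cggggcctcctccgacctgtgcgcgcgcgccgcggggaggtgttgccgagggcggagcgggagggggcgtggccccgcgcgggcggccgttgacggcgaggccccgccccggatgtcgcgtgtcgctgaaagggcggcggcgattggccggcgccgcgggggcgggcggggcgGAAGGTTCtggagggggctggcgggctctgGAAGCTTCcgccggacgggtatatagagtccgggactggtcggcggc
The HSPA1B element GAATATTC lies 105 bases before the start and the TATA box 29 bases before it. DNAJB1 has GAAGGTTC at 77 and GAAGCTTC at 47 bases. An element of either type stood in 8.07% of 9463 promoters, in 51.9% of the 27 promoters of tested heat shock genes and in 5 of the 8 promoters of those that fell. HSPA1B, DNAJB1, HSPA8, DNAJA1 and HSP90AA1 held one, and DNAJA4, HSPH1 and BAG3 did not within this window. Among all genes that fell, 9.93% of 151 promoters held one.

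Genes of the amino acid response rose by small steps. ATF4, the factor that is translated when amino acids run low or proteins misfold, switches on genes for amino acid synthesis, uptake and stress signalling. Its own transcript rose 1.14-fold, from 508, 517 and 521 CPM to 592, 585 and 594 CPM. Of 29 tested ATF4 target genes, 16 rose and 2 fell, with a median log2 fold change of 0.22. The count of those that rose was 11 without control replicate 1 and 8 without Senexin B replicate 2.

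CHAC1, which degrades glutathione, rose most in this list, 1.53-fold, from 12.0, 15.3 and 13.4 CPM to 20.3, 22.8 and 19.5 CPM. SESN2, a leucine sensor that restrains mTORC1, rose 1.46-fold from 26.4, 29.1 and 30.2 CPM to 40.0, 44.6 and 41.4 CPM. TRIB3, a pseudokinase that feeds back on ATF4, stood at 64.0, 71.1 and 68.5 CPM in control and at 97.1, 97.7 and 101 CPM with the compound, 1.45-fold higher (log2 fold change 0.54 ± 0.06, adjusted p = 2.55e-10 in edgeR). STC2, a secreted glycoprotein, rose 1.35-fold, from 112, 112 and 102 CPM to 150.3, 148 and 143 CPM. ASNS, asparagine synthetase, rose 1.18-fold, from 186, 198 and 194 CPM to 232, 225 and 224 CPM. For these 5 genes no treated library overlapped a control library.

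The 2 that fell were ATF5, a factor related to ATF4, and SQSTM1, the autophagy receptor p62. ATF5 went from 40.6, 48.5 and 44.8 CPM to 29.1, 27.6 and 30.8 CPM (log2 fold change -0.61 ± 0.08), and SQSTM1 from 229.7 ± 6.74 to 194 ± 3.05 CPM. The stress genes DDIT3, which encodes CHOP, ATF3 and PPP1R15A were not called, at -0.21, 0.14 and -0.08.

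Linked lists moved the same way by less. PSAT1, of serine synthesis, rose from 284 ± 13.7 to 340.3 ± 6.48 CPM, and MTHFD2, of mitochondrial one-carbon metabolism, from 498 ± 21.5 to 566 ± 5.33 CPM. Of 12 tested genes of that list 5 rose and none fell, against 3 without control replicate 1 and 2 without Senexin B replicate 2 or 3. All 20 tested aminoacyl-tRNA synthetase genes had a log2 fold change above 0, from 0.03 to 0.20, and 7 of them rose. GARS and YARS, which charge glycine and tyrosine tRNAs, rose 1.15-fold each, to 374 ± 7.46 and 350.5 ± 12.6 CPM. Without control replicate 1, 2 of the 20 rose. Without Senexin B replicate 2, Senexin B replicate 3 or control replicate 3 the number was 4, 3 or 4.

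Promoters of 4 ATF4 target genes are shown, CHAC1 and ASNS because they carry the composite element and TRIB3 and STC2 because they rose with the smallest adjusted p of the list. CHAC1 and ASNS were added after the motif counts were seen.
CHAC1, chr15:40953221-40953470, forward strand: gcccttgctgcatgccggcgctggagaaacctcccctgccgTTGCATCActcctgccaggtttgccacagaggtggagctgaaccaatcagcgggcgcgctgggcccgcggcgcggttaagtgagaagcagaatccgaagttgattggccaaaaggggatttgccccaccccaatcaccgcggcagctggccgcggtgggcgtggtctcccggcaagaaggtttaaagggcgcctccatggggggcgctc
ASNS, chr7:97872409-97872658, reverse strand: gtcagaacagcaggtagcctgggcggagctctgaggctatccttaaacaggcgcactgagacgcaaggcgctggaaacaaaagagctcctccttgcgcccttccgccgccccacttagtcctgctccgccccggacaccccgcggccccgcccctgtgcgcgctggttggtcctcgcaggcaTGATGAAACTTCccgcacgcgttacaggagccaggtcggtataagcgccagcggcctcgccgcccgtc
TRIB3, chr20:381045-381294, forward strand: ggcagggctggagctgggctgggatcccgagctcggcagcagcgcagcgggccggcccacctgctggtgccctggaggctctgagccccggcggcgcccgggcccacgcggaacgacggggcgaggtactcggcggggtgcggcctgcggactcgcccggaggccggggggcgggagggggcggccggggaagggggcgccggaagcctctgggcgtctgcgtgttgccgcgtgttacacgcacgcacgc
STC2, chr5:173328415-173328664, reverse strand: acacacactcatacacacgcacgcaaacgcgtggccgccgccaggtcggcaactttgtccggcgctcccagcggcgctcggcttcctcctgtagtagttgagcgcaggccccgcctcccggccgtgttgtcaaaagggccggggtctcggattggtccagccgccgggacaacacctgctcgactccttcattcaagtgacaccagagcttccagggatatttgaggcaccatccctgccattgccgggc
In CHAC1 the match TTGCATCA, on the opposite strand, lies 209 bases before the start. In ASNS the match TGATGAAA lies 68 bases before it and overlaps a GAANNTTC match. The composite element stood in 1.15% of all promoters and in 2 of the 16 available promoters of called ATF4 target genes. TRIB3 and STC2 held no match to the motifs in capitals within these windows.

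**Figure D3:**
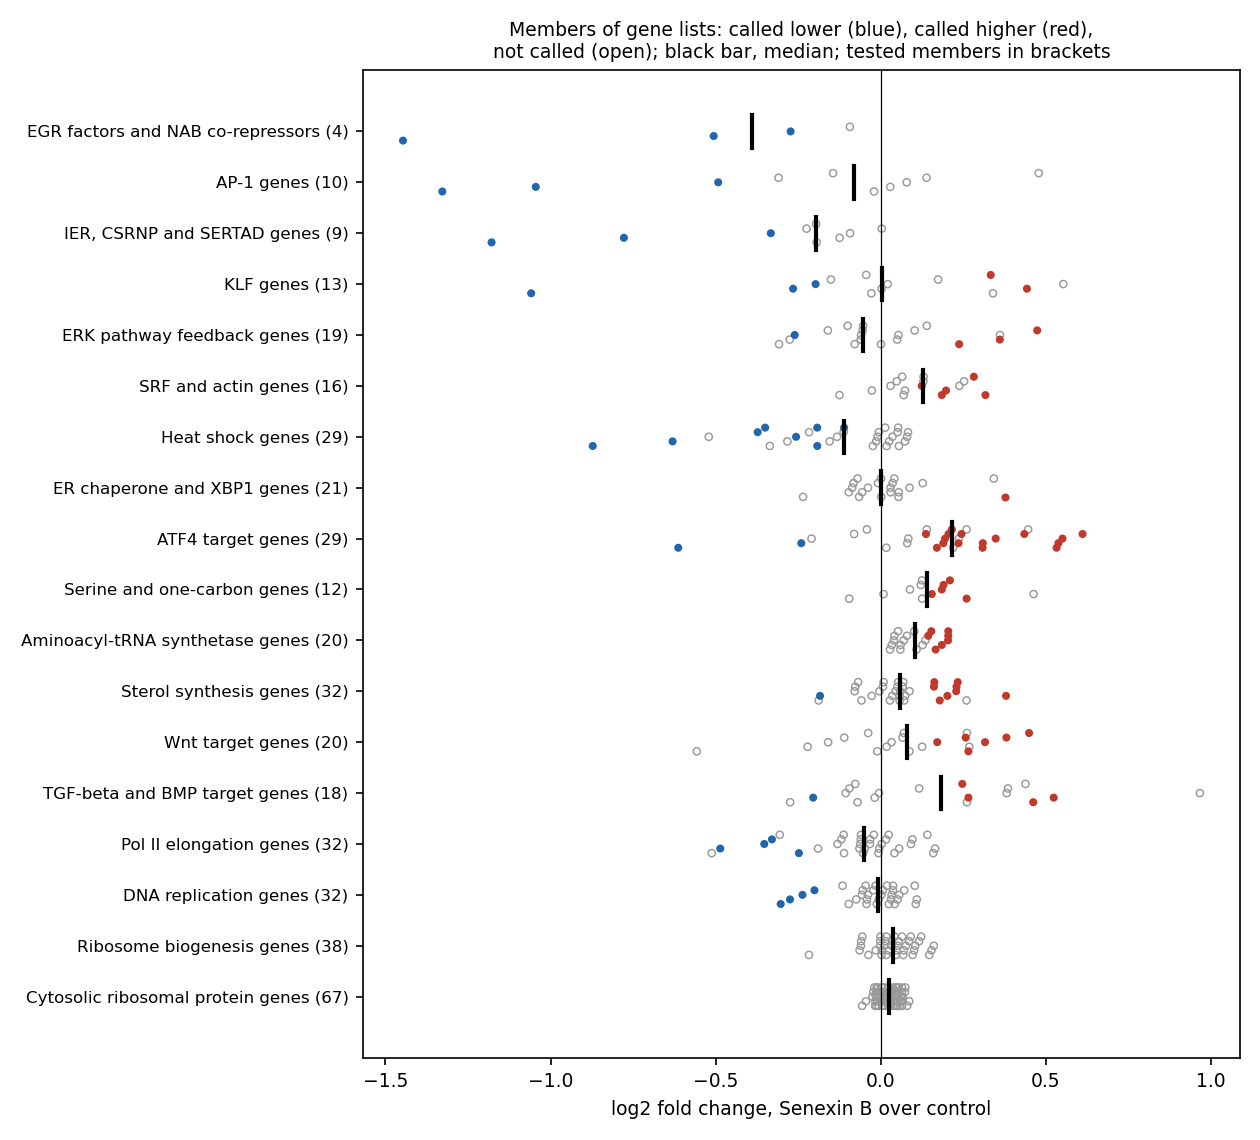
Each row is a gene list and each point a tested member, placed by its log2 fold change of Senexin B over control, with the number tested in brackets. Blue points fell, red points rose, open points were not called and black bars are medians. The ATF4 list has 16 red points and the heat shock list 8 blue ones, and the 67 ribosomal protein genes crowd near 0.

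MYC, the growth-promoting factor that beta-catenin drives in colon cells, rose 1.37-fold, from 393, 419 and 424 CPM to 561, 570.5 and 557 CPM (log2 fold change 0.45 ± 0.04, adjusted p = 8.94e-14 in edgeR). Of the other 10 tested genes of the MYC network, MXD1, which competes with MYC for its partner MAX, fell by 0.68 on the log2 scale at a level under 10 CPM. That call was lost without control replicate 3 or any 1 of the Senexin B libraries (adjusted p up to 0.379). None of 38 ribosome biogenesis genes, a group that MYC is known to raise, passed the test in edgeR, 10 had an unadjusted p under 0.05, all higher, and DESeq2 called 1.

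CDKN1A, the cell cycle inhibitor p21, fell 1.70-fold, from 149, 153 and 155 CPM to 90.1, 89.6 and 88.7 CPM (log2 fold change -0.77 ± 0.05, adjusted p = 3.11e-18 in edgeR). The treated libraries lay close together, far below the lowest control library. MDM2, a ubiquitin ligase, fell 1.17-fold, from 208 ± 3.23 to 177 ± 4.47 CPM, and PPM1D, a phosphatase of the DNA damage response, fell by 0.27 on the log2 scale. Leaving out control replicate 3 or either of Senexin B replicates 2 and 3 ended the PPM1D call (adjusted p up to 0.105). PLK2, a polo-like kinase, rose 1.21-fold, to 182 ± 5.56 CPM. CDKN1B, the related inhibitor p27, rose from 35.4, 37.3 and 35.5 CPM to 46.0, 45.5 and 43.9 CPM.

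Among S-phase genes, RRM2, the small subunit of ribonucleotide reductase, fell from 724, 797 and 760.3 CPM to 624, 633 and 629.6 CPM, and UHRF1, which maintains DNA methylation, from 198 ± 2.42 to 168 ± 1.65 CPM. These were 2 of the 4 of 32 DNA replication genes that fell. The count was 2 by DESeq2, and 2 when either of control replicates 1 and 3 or of Senexin B replicates 1 and 2 was left out.

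Some BMP and Wnt target genes rose, while most members of both lists were not called. ID1 and ID3, inhibitors of bHLH factors and direct targets of BMP signalling, rose from 122, 122 and 117 CPM to 171, 160.1 and 165 CPM and from 48.2, 48.1 and 47.1 CPM to 70.1, 65.6 and 70.2 CPM. The ligand BMP4 rose from 179, 173 and 174 CPM to 215, 210.3 and 207 CPM. Of 18 tested genes of the TGF-beta and BMP list 10 had a log2 fold change above 0 and 8 below, and 4 rose and 1, the co-repressor SKI, fell, which leaving out control replicate 1 or Senexin B replicate 3 ended (adjusted p up to 0.162). SMAD6 and SMAD7 were not called, at 0.44 ± 0.23 and 0.39 ± 0.21.

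Of 20 tested Wnt target genes 6 rose, none fell and 14 were not called. MYC and BMP4 were among those that rose, and BMP4 is counted in both lists. RNF43, a ubiquitin ligase that removes Wnt receptors, rose 1.24-fold, from 71.8, 69.4 and 72.7 CPM to 82.1, 93.5 and 90.8 CPM. JAG1, a Notch ligand and beta-catenin target, rose 1.30-fold to 91.8 ± 5.14 CPM, and TCF7L2, the DNA-binding partner of beta-catenin, rose from 136 ± 3.71 to 162 ± 3.04 CPM. The more specific Wnt feedback genes AXIN2, NKD1 and ZNRF3 were not called, at -0.16 ± 0.12, -0.01 ± 0.12 and 0.07 ± 0.08, nor was CCND1 at 0.02 ± 0.03.

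Some genes of the transcription machinery fell. PPP1R10, the PNUTS subunit that brings protein phosphatase 1 to RNA polymerase II, fell 1.57-fold, from 103, 109.7 and 111 CPM to 66.8, 70.3 and 68.7 CPM (adjusted p = 7.99e-14 in edgeR). MEPCE, which caps the 7SK RNA, fell from 93.9, 87.9 and 89.5 CPM to 62.1, 63.4 and 67.9 CPM (log2 fold change -0.49 ± 0.06). HEXIM1, the 7SK-bound inhibitor of the elongation kinase CDK9, fell 1.26-fold from 88.8 ± 2.59 to 70.7 ± 2.36 CPM, and BRD2, a BET family reader of acetylated histones, fell 1.28-fold from 366 ± 14.8 to 287 ± 4.41 CPM. MEPCE, HEXIM1, BRD2 and AFF4 were the 4 of 32 tested elongation genes that fell, and none rose. AFF4 had an adjusted p of 0.122 when control replicate 1 was left out. CDK9 and the NELF subunit genes were not called. CREBBP, the acetyltransferase CBP, fell from 159, 128 and 139 CPM to 107, 115 and 110.5 CPM, and H1F0, a linker histone, from 453 ± 5.86 to 337 ± 10.7 CPM.

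Lipid, redox and insulin genes gave smaller groups. Of 32 tested sterol and fatty acid synthesis genes 8 rose and 1 fell, with MSMO1, a sterol oxidase, from 83.6 ± 3.12 to 109 ± 2.52 CPM and SQLE, squalene epoxidase, from 119 ± 1.35 to 140.0 ± 6.76 CPM. Those that rose were 4 without control replicate 1 or Senexin B replicate 2 and 5 without Senexin B replicate 1 or 3. IRS2, the insulin receptor substrate, rose 1.49-fold, from 20.1, 16.3 and 16.8 CPM to 26.9, 27.3 and 24.8 CPM. Of the NRF2 target genes, OSGIN1, an oxidative stress gene, fell 1.69-fold from 14.5 ± 0.878 to 8.54 ± 0.722 CPM, while TXNRD1, thioredoxin reductase, rose 1.15-fold to 802 ± 24.1 CPM. With 2 of 20 higher and 2 lower, that list had no single direction.

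The genes that rose furthest were of mixed kinds. LURAP1L had the largest fold among genes with a standard symbol and at least 1 CPM, at a low level, from 1.35, 0.949 and 0.884 CPM to 3.16, 3.72 and 2.14 CPM, 2.82-fold higher (log2 fold change 1.49 ± 0.34, adjusted p = 0.00162 in edgeR). At well over 50 CPM, MYEOV, a gene amplified with CCND1 in some cancers, rose 1.52-fold, from 102, 108 and 118 CPM to 171, 163 and 165 CPM. KRT80, an epithelial keratin, rose 1.51-fold, from 27.2, 28.1 and 31.5 CPM to 43.2, 46.4 and 42.2 CPM. KRT7, KRT8 and KRT18 rose too, which made 4 of 7 tested keratin genes, but 1 of 7 without control replicate 1 or Senexin B replicate 1 and 2 of 7 by DESeq2 or without control replicate 2 or Senexin B replicate 2. The summed epithelial markers given above, which KRT8 and KRT18 dominate, were higher in every Senexin B library than in any control library, and their part in other results was not tested. The other 5 tested markers were not called, and 4 of them had log2 fold changes below 0, at -0.05 for EPCAM, -0.06 for KRT19, -0.14 for CDX2 and -0.14 for CLDN4. The median of the 7 tested markers was -0.05.

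Several large lists gave few calls or none. None of 67 cytosolic ribosomal protein genes was called by edgeR or DESeq2, with log2 fold changes from -0.06 to 0.09 and 4 at an unadjusted p under 0.05, all higher. None of 32 proteasome genes was called by either tool, with 2 at an unadjusted p under 0.05. Of 31 tested NF-kB target genes, 3 fell (9.68%, against 3.04% called over all genes) and none rose, and the count was 1 without control replicate 3. The median log2 fold change of that list was -0.11, with 24 of 31 genes below 0. TNFAIP2, a TNF-induced protein gene among those 3, went from 55.5 ± 3.14 CPM to 44.5, 47.2 and 46.4 CPM, and leaving out control replicate 3 gave an adjusted p of 0.0612. Of 28 hypoxia and glycolysis genes 1 fell (3.57%, near the 3.04% called over all genes).

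Genes changed at least 1.5-fold had few exons, which did not hold to the same extent for all called genes. Those that fell at least 1.5-fold had a median of 3 exons and a gene span of 8.83 kb, against 9 exons and 32.3 kb over all tested genes. Of these 21 genes, 52.4% had up to 3 exons, against 14.7% of all tested genes, and of the 9 annotated among the 10 that rose at least 1.5-fold, 55.6% did. All 198 genes that fell had a median of 8 exons, a span of 29.7 kb and a transcript length of 4196 bases, against 3148 bases over all tested genes, and 19.4% of them had up to 3 exons. EGR1 has 2 exons (chr5:138465490-138469315, forward strand), and JUN (chr1:58780788-58784327, reverse strand) and HSPA1B (chr6:31827735-31830255, forward strand) have 1 each, in GENCODE 29 on GRCh38. Over genes, the log2 fold change had a Spearman rho of 0.10 with transcript GC content and -0.19 with transcript length, where genes are not independent replicates. The deviation of control libraries from their mean followed GC content with rho from -0.16 in replicate 1 to 0.24 in replicate 3. A motif of EGR factors (GCGNGGGCG) stood in 27.2% of the promoters of genes that fell. It stood in 20.9% for those that rose and in 15.1% of all. TATAAA stood in 11.9%, 6.47% and 4.7%, in the same order. A looser NF-kB motif, also rich in G and C, stood in 88.7%, 75.5% and 72.4%. These motifs were picked from a longer set that was scanned, and not all are given here. The part of promoter GC content in these shares was not tested.

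The 6 libraries with TNF gave a second measurement of the same inhibitor that shared no library with the first. Among them TNF replicate 1 stood apart. Its chi-square per degree of freedom was 2.80 and 2.51 against TNF replicates 2 and 3, and 1.249 between those 2. It had the fewest total counts of any library, 5835226. Its deviation followed GC content with rho -0.53, against 0.37 and 0.33 in TNF replicates 2 and 3. In TNF-treated cells 713 genes passed the test (5.45%), and 451 to 468 did without TNF replicate 1 or without any 1 of the 3 libraries that had both TNF and Senexin B. With GC-corrected offsets 619 genes passed with TNF, and 449 of the 713 were among them. The shares given next are from the main fit, without those offsets. Of the 398 genes called without TNF, 387 had the same sign with TNF (97.2%), 212 were called in the same direction (53.3%) and 0 in the opposite one by edgeR. Among the genes not called without TNF, 63.1% had the same sign and 3.59% were called in the same direction. Both effects were tested in 1 fit of all 12 libraries, so both tests used the same estimate of each gene's spread. Called genes also stood at higher levels. Their median control level was 82.5 CPM for those that rose and 85.2 CPM for those that fell, against 29.3 CPM over all tested genes. The part of level and spread in these shares was not tested. Of the 200 that rose, 123 rose again, and of the 198 that fell, 89 fell again.

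EGR1 fell by 1.77 ± 0.11 on the log2 scale with TNF, JUN by 1.35 ± 0.08, CSRNP1 by 1.32 ± 0.13 and KLF2 by 1.26 ± 0.17. FOS was not called with TNF, at -0.59 ± 0.24. GP1BA, SOX8 and LRP1, which fell without TNF, had the opposite sign with it and were not called, at 0.45 ± 0.45, 0.17 ± 0.24 and 0.05 ± 0.20. Among the 31 genes changed at least 1.5-fold, 28 had the same sign with TNF (90.3%) and 19 were called in the same direction (61.3%). HSPA1B fell by 0.75 ± 0.06, DNAJB1 by 0.59 ± 0.04 and CDKN1A by 0.55 ± 0.05. List counts with TNF stand beside a larger share called over all genes, 5.45% against 3.04% without TNF. With TNF 10 of 29 heat shock genes fell and 1 rose. MYC rose by 0.34 ± 0.04, ERRFI1 by 0.41 ± 0.03, ID1 by 0.67 ± 0.06 and MYEOV by 0.68 ± 0.05. Of the ATF4 list 10 genes rose and 3 fell with TNF, where STC2, ASNS and SESN2 were not called, at 0.01 ± 0.05, -0.08 ± 0.04 and 0.18 ± 0.08.

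The difference between the inhibitor's effects with and without TNF was tested as an interaction and passed for 6 genes (0.0459% of those tested), of which STC2, ASNS and BMP4 were among the 398. For STC2 the effect with TNF minus that without was -0.42 on the log2 scale (adjusted p = 0.000375 in edgeR), and it passed in all 12 fits that left out 1 library. For ASNS the difference was -0.32 (adjusted p = 0.0117), and it was lost in 6 of the 12 fits, those without control replicate 1, any 1 of the Senexin B replicates, or TNF plus Senexin B replicate 1 or 3 (adjusted p up to 0.143). For BMP4, which rose by 0.27 without TNF and by 0.58 with it, the difference of 0.32 had an adjusted p of 0.0446. That call was lost in 11 of the 12 fits, all but the one without TNF replicate 1 (adjusted p up to 0.348), and by DESeq2 (0.068). Across those fits 2 to 9 genes passed the interaction test. For SESN2 and CREBBP the interaction did not pass the test (adjusted p = 0.628 and 0.607 in edgeR).

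**Figure D4:**
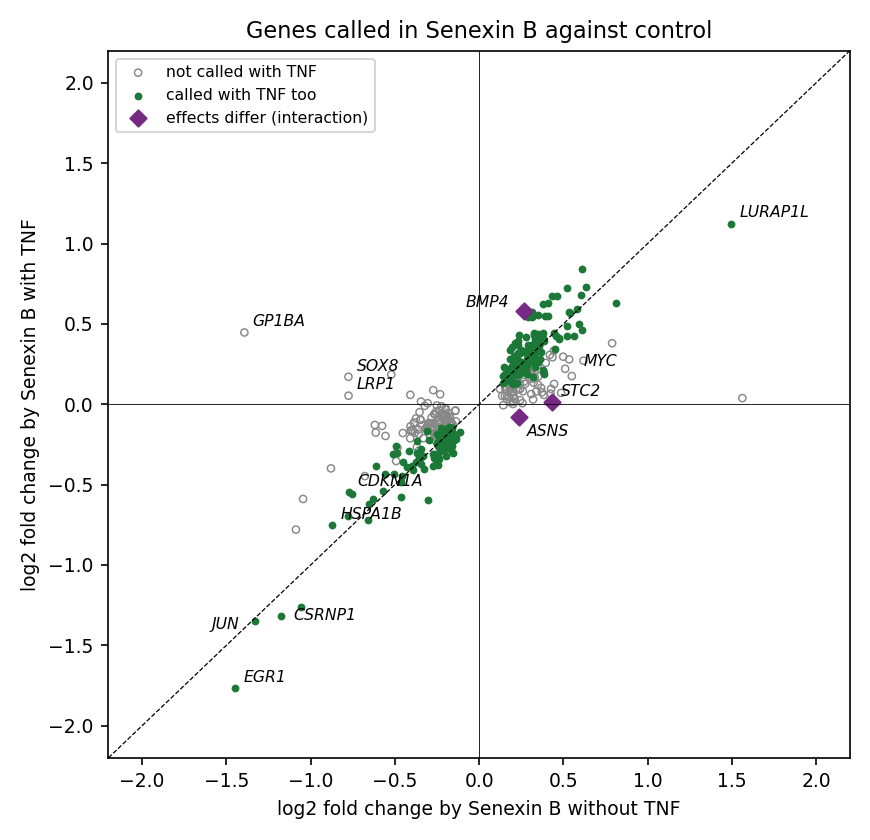
The 398 genes called in Senexin B against control are placed by the log2 fold change of the inhibitor without TNF (x axis) and with TNF (y axis), and the dashed line marks equal effects. Green points were called with TNF in addition, open points were not, and purple diamonds mark the 3 genes whose effects differed by the interaction test. EGR1, JUN and CSRNP1 lie on or below the line at the lower left, and GP1BA, LRP1 and SOX8 lie above 0 on the y axis.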

How the data were processed

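RNA-seq was made from total RNA of HCT116 cells with a TruSeq kit that does not mark strand, so reads of a gene and of an overlapping or antisense partner cannot be told apart. The deposited values are raw read counts per gene symbol, 1 column per library. The submitters' processing notes name STAR 2.4, SAMtools 1.2, featureCounts of Subread 1.4.6 and GRCh38; the annotation release, strand setting and handling of multi-mapping reads are not given in the sources used here. Columns were matched to samples by the column number in each sample's description.

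Genes with low counts were removed by filterByExpr, and all 12 libraries were fitted together with 1 coefficient per group in edgeR 4.0.16 (R 4.3.3, limma 3.58.1; TMM, robust quasi-likelihood F-test, two-sided, Benjamini-Hochberg adjustment, called under 0.05). Log2 fold changes have standard errors from the fit. Alternatives were DESeq2 1.42.0, its size factors, other filters, only the compared libraries, a replicate block, GC-corrected offsets, and leaving out each library in turn. Leaving out control replicate 1 and TNF replicate 1 together, and following the interaction of single genes across settings, were added after seeing the data. The fit was tested on simulated data with 50 changed genes per fold, each at 1 CPM or more. It recovered 48% of 1.25-fold, 78% of 1.5-fold and 92% of 2-fold changes, with 6 false calls among 165. Many changes as small as 1.25-fold would thus be missed. Replicate numbers were not used to pair the samples in the main fit.

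The comparison and the 44 gene lists (857 distinct genes) were chosen with earlier results of these data known. Named genes are the 12 largest changes per direction, the 12 smallest adjusted p, up to 5 called members per list by adjusted p, the 8 smallest interaction p, and a fixed set of kinase module and immediate early genes. Members given as not called, and ATF4, BAG3, DNAJA4 and HSP90AA1, were named after their values were seen. Gene structure came from GENCODE 29, matched by symbol for 12445 of 13084 tested genes. Some genes and lists are not reported here.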

Additional observations from a re-analysis of the deposited data

Results flagged for a closer look

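The effect of Senexin B differed between cells with and without TNF, by the interaction term of the edgeR fit, for 3 genes that changed without TNF. For STC2, a secreted glycoprotein of the ATF4 list, the log2 fold change was 0.43 ± 0.05 without TNF and 0.01 ± 0.05 with it, a difference of -0.42. For ASNS, asparagine synthetase, it was 0.24 ± 0.04 without and -0.08 ± 0.04 with TNF, a difference of -0.32. For BMP4, a secreted ligand, it was 0.27 ± 0.04 without and 0.58 ± 0.05 with TNF, a difference of 0.32. The levels without the inhibitor also differed. STC2 had a mean of 109 CPM in control and 197 CPM in TNF libraries, and BMP4 of 175.5 and 88.2 CPM. The STC2 difference passed in 12 of 12 fits that left out 1 library, with adjusted p up to 0.0145, whereas that of ASNS was lost in 6 and that of BMP4 in 11. The cause of these differences was not tested.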

How the results depend on the processing

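Of the 117 named genes that were called, 67 were called in all 12 fits that left out 1 library and 66 under every alternative, while 50 were lost without at least 1 library. CDK19, not called, was at -0.08 and ranged from -0.16 to 0.0061 with 1 library left out, the latter without Senexin B replicate 3. For Senexin B against control the count of 398 was 236 to 589 when 1 library was left out (higher 126 to 306, lower 110 to 283), 275 by DESeq2, 394 with no filter (224 higher, 170 lower), 511 with only the compared libraries and 590 with GC-corrected offsets. With TNF the count of 713 was 475 by DESeq2 (216 lower) and 451 to 815 with 1 library left out (higher 242 to 478, lower 200 to 380). With GC-corrected offsets it was 619, which kept 449 of the 713, whereas without TNF 394 of the 398 were kept. The interaction count of 6 was 4 by DESeq2 (1 higher), 10 with no filter (7 higher) and 2 to 9 with 1 library left out (higher 1 to 6, lower 1 to 3), and it was not run with only the libraries of the groups compared. Same-numbered control and Senexin B libraries had correlations of their deviations of 0.036, 0.0094 and 0.013. The main fit did not pair the samples by number, and whether a number marks a shared batch was not tested. With a replicate block 479 genes were called, all 398 among them, and with TNF 871 were, against 713 without the block. With the replicate block and GC-corrected offsets 718 genes were called without TNF (355 higher, 363 lower). The causes of these shifts were not tested. Depth and 3 libraries per group limit which small changes could be called.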

Other observations

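Genes of the HOXB cluster, homeobox factors that set position along the body axis, were looked up after the called genes had been seen. Of 8 tested HOXB genes 4 rose and none fell, with a median log2 fold change of 0.26. HOXB8 stood at 54.0, 50.1 and 48.1 CPM in control and at 63.9, 65.2 and 64.6 CPM in Senexin B libraries, 1.28-fold higher (adjusted p = 0.000349 in edgeR). HOXB9 rose from 34.1 ± 0.370 to 43.1 ± 2.33 CPM and HOXB6 from 13.9 ± 0.980 to 18.5 ± 1.42 CPM (SD, n = 3). Leaving out Senexin B replicate 3 ended both calls in edgeR, with adjusted p of 0.065 for HOXB9 and 0.146 for HOXB6, and leaving out control replicate 2 gave 0.103 for HOXB6. HOXB6 was not called by DESeq2 (0.0845). HOXB4 rose from 20.0 ± 1.30 to 26.1 ± 1.85 CPM, but not without control replicate 1 (adjusted p = 0.0895 in edgeR), nor on dropping Senexin B replicate 1 (0.113) or 3 (0.0522). With TNF, 3 of the 8 HOXB genes rose, where 5.45% of all tested genes were called in either direction. None of the 9 HOXA, 4 HOXC and 1 HOXD genes tested was called in edgeR, but HOXA3 and HOXC9 had larger log2 fold changes than any HOXB gene. HOXA3 stood at 0.67 ± 0.22 (adjusted p = 0.0802) and HOXC9 at 0.48 ± 0.16 (0.0822), with no overlap between the groups, and a difference between the clusters was not tested.

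Outside the genes called without TNF, CLDN4, SDC4 and IRF2BPL passed the interaction test in the fit of all 12 libraries. Only 2 genes passed, 1 higher and 1 lower, without Senexin B replicate 2 or 3, or without TNF plus Senexin B replicate 1 or 3. STC2 was the lower one, so SDC4 was lost in each of these fits, and CLDN4 and IRF2BPL did not both pass. By DESeq2, with 1 higher difference, CLDN4 and IRF2BPL did not both pass either. CLDN4, a tight junction claudin, had a log2 fold change of -0.14 ± 0.05 without TNF and 0.36 ± 0.05 with it. SDC4, a syndecan, stood at -0.11 ± 0.05 and -0.42 ± 0.04, and IRF2BPL at -0.04 ± 0.07 and 0.41 ± 0.07.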
